A study of Mus musculus with 20 samples.

Results

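The regions described here were 8911 open promoters that carried acetylated histone H3 lysine 27 (H3K27ac) without trimethylation of the same residue (H3K27me3) in the control cells. They were selected on the peak lists of the WT libraries: each was a reproducible ATAC-seq region within 1 kb of a gene start, overlapped a H3K27ac peak in both WT libraries, and did not overlap a H3K27me3 broad peak in both of them. They made up 64.1% of the 13909 open promoters and 27.7% of all 32120 consensus regions. Of the other open promoters, 1808 carried H3K27ac together with H3K27me3, 749 carried H3K27me3 without H3K27ac by the same criterion, and 2441 met neither criterion, while 18211 consensus regions were distal to any gene start. The 749 are called H3K27me3 only below, although 379 of them had a H3K27ac peak in 1 WT library.

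The cells were GFP-positive Nkx2.1-lineage cells sorted from mouse neocortex at postnatal day 7 or 8. WT cells came from Nkx2.1-Cre mice and Tcf4 cKO cells from Tcf4 f/f; Nkx2.1-Cre mice, so both genotypes carried the Cre driver and the Ai3 reporter, and the deletion was limited to cells that had expressed Nkx2.1 or descended from them. Each genotype had 2 libraries of ATAC-seq and 2 of Cut&Tag for each of H3K4me1, H3K27ac and H3K27me3, with 50000 cells in a library. Tcf4 itself was mapped with an anti-Flag antibody in 2 libraries of 200000 nuclei from a Tcf4-tag line, in which Nkx2.1-Cre switches on a Flag and HA tag at the end of the endogenous protein. How many animals were pooled in a library was not given in the sources used here, so the p-values below measure only the spread between these libraries, which may be technical.

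A promoter is the stretch of DNA around the first transcribed base, where transcription factors and RNA polymerase assemble. Acetylation of lysine 27, written by p300 and CBP, marks the nucleosomes that flank active promoters and enhancers, and trimethylation of the same lysine, written by Polycomb repressive complex 2 through Ezh2 or Ezh1, marks silent developmental genes. The 2 marks cannot sit on the same histone tail, which is why their pattern is used to sort promoters into active, poised and silent ones. H3K4me1 is best known from enhancers and from the shoulders of active promoters. Tcf4 is an E protein, a basic helix-loop-helix factor that binds the E-box CANNTG alone or with other basic helix-loop-helix factors such as Olig2.

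The libraries held between 15085 and 72790 peaks, and the number of mapped reads behind them was not given. The H3K4me1 lists held 51510 and 59526 peaks in WT against 72790 and 65049 in Tcf4 cKO, and the second anti-Flag library held 16834 peaks against 28606 in the first. No library without the tag was used here, so the anti-Flag background could not be measured. Because the sorted cells were a mixture of lineages, a change in a promoter and a change in the share of cells that use it cannot be told apart.

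The promoter sequences shown first come from the 10 listed below for long H3K27ac (Sgms1 and Tent5a) and from those with the strongest anti-Flag peaks (Tmem260 and Zfp868). Syt3 had the largest rise in Tcf4 cKO among the acetylated promoters called in ATAC by the test below. They are printed so that the values given for them below can be read beside their bases. Each is the RefSeq window of 300 bases on GRCm38.p6, from 250 bases before to 50 bases after a start, written 5′ to 3′ along the gene. Capitals mark matches on either strand to the E-box CANNTG, the NFI half-site TTGGCA, the ETS word CCGGAAG, the NRF1 word CGCATGCG, the YY1 word AAGATGGCG, the SP and KLF word GGGCGGG, the NFY word CCAAT and the CRE word TGACGTCA. The windows lie at chr19:32388463-32388762 on the minus strand (Sgms1), chr9:85327075-85327374 on the minus strand (Tent5a), chr14:48445873-48446172 on the plus strand (Tmem260), chr8:69625499-69625798 on the minus strand (Zfp868) and chr7:44383876-44384175 on the plus strand (Syt3).
Sgms1: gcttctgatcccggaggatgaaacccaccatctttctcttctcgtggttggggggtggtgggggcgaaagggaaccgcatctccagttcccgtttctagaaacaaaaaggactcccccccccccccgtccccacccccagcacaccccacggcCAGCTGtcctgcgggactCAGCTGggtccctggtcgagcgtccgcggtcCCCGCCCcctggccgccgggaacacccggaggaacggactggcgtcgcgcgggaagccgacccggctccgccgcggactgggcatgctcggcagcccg
Tent5a: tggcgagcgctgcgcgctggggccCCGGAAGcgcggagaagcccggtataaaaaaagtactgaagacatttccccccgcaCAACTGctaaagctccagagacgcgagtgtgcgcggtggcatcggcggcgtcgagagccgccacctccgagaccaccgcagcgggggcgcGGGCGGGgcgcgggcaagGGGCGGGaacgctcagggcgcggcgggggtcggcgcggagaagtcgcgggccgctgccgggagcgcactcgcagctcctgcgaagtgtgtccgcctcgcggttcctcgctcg
Tmem260: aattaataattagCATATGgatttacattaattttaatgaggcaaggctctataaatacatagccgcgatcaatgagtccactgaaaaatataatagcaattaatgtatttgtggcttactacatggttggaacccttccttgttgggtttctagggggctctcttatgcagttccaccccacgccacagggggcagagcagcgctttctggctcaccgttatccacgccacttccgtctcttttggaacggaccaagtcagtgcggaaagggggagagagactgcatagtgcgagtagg
Zfp868: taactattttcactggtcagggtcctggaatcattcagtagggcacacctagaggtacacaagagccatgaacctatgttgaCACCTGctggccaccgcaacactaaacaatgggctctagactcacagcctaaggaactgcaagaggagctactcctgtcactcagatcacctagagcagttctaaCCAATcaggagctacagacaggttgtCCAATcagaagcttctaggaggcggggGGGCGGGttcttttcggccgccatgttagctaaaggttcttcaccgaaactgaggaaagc
Syt3: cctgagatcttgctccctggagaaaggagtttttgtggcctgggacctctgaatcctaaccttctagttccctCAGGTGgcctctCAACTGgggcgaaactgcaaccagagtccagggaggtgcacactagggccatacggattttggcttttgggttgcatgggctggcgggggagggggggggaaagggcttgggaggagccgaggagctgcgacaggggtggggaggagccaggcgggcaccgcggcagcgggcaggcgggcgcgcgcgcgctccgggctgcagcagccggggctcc

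Sgms1 (sphingomyelin synthase) had 2 CAGCTG E-boxes, at positions -97 and -79 from the start, and 1 SP and KLF word. In Tent5a (a poly(A) polymerase) the search found 2 SP and KLF words, 1 ETS word and 1 E-box. Both windows were rich in G and C, at 69.3% and 72.0%. The windows with the strongest anti-Flag peaks were poorer, at 45.7% in Tmem260 and 50.7% in Zfp868, and each held a single E-box, CATATG at -237 and CACCTG at -168. Zfp868 also held 2 NFY words and 1 SP and KLF word. Syt3 (a synaptotagmin) held the E-boxes CAGGTG and CAACTG at -177 and -165.

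Over all these promoters, sequence windows of the same span were read from the GRCm38.p6 genome around the annotated start of each region, which gave 8899 distinct windows. Their median GC content was 61.0% and their median ratio of observed to expected CpG was 0.771, with 73.6% at a ratio of 0.6 or more. Over 41488 protein-coding starts of the GENCODE annotation the same values were 56.3%, 0.563 and 47.4%. The promoters with H3K27me3 only were at least as rich in G and C, with a median of 63.7%. Those with both H3K27ac and H3K27me3 had a median of 64%, and 73.9% of them had a CpG ratio of 0.6 or more. Single words differed in frequency, a difference that was not tested. The ETS word stood in 18.3% of the acetylated promoters, 2.67% of those with H3K27me3 only and 11.2% of all protein-coding starts. The NRF1 word was found in 3.96%, 0.535% and 2.46% of the same sets, and the YY1 word in 3.14%, 0.802% and 1.95%. These 3 factors are classical regulators of housekeeping promoters. A TATA box (TATAAA, from 45 to 15 bases before the start) stood in 0.652% of the acetylated promoters and 2.02% of all protein-coding starts. The E-box CANNTG, the word Tcf4 reads, was no more common in the acetylated promoters (62.4%) than among all protein-coding starts (68.3%), and CAGCTG stood in 15.2% and 15.5%. The E-box CACGTG stood in 10.0% and 7.55%. These shares describe letters in a window and not bound sites.

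Most of the regions lay squarely on a start. The region covered the start of the nearest transcript in 8629 cases (96.8%), and the nearest transcript was protein-coding in 8518. In 790 (8.87%) there were protein-coding starts on both strands, as in bidirectional promoters. The share was 8.35% at promoters with both H3K27ac and H3K27me3 and 0.801% at those with H3K27me3 only. Altogether they belonged to 8526 Ensembl genes, of which 339 had more than 1 such promoter. The median width was 1261 bp, compared with 839 bp for distal regions. Chromosome X carried 348 of them, 73.4% of its 474 open promoters, and chromosome Y carried 2.

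**Figure D1:**
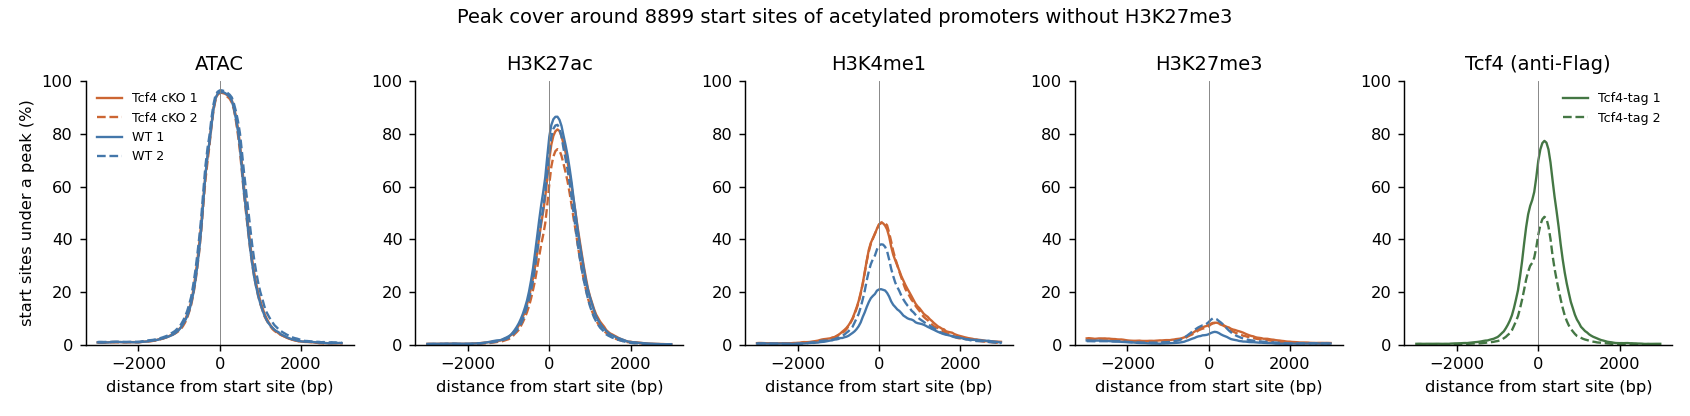
Share of start sites of the acetylated promoters (y axis, percent of 8899) that lay under a peak at each distance from the start (x axis, bp, positive in the direction of transcription), 1 line per library. ATAC cover was highest within 50 bp of the start in all 4 libraries, H3K27ac cover was highest 200 bp downstream, and the WT replicate 1 line of H3K4me1 lay lowest.

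The plot of peak cover around the starts shows the layout of the marks. ATAC peaks covered the start itself in 95.4% to 96.4% of cases, with little difference between libraries. H3K27ac cover was offset into the gene: it was highest 200 bp downstream, at 86.5% and 83.4% in the WT libraries and 81.7% and 74.2% in Tcf4 cKO, and was already lower at the start, at 79.0% and 73.1% in WT. That position is where the first nucleosome after the start usually sits. The anti-Flag peaks were offset in the same direction, with the highest cover 150 bp downstream at 77.3% and 48.5%. All marks were compact, and at 3 kb on either side no more than 2.43% of starts were under a peak of any kind.

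The acetylation itself was modest in height and short. The fold enrichment at the peak summit, which is the MACS2 ratio of signal to local background, had a median of 4.71 and 4.53 in the 2 WT libraries and reached 10.4 and 10.3. Within 5 kb of the start, H3K27ac peaks covered a median of 955 and 848 bp in WT. The 10 longest, taken by the lower of the WT libraries, were Gabbr1, Sgms1, Tent5a, Mdga2, Tsc22d4, Chl1, Mpped2, Selenof, Fmn2 and Caly. Gabbr1, which encodes a subunit of the metabotropic GABA receptor, had 2476 and 2157 bp in WT and 2418 and 2125 bp in Tcf4 cKO, so its 4 libraries overlapped. Sgms1 had 2093 and 2272 bp in WT against 1310 and 1611 bp in Tcf4 cKO, which did not overlap. Chl1, a neural cell adhesion molecule, likewise had 2002 and 1995 bp against 1615 and 1526 bp. Mpped2 went the other way, with 1981 and 1898 bp in WT and 2073 and 2117 bp in Tcf4 cKO. These lengths are a description, because the WT values chose the genes. Width and height were different properties: fold enrichments of Gabbr1 were 3.27 and 2.94 in WT, below the median of the set.

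At the edge of the rule, the weakest acetylation inside it belonged to Iffo1 (2.22 and 2.56 in WT), Alcam (2.29 and 2.94) and Mir219a-2 (3.06 and 2.29), the last a microRNA known for its part in oligodendrocyte maturation. Just outside, Maats1 (7.13) and Mir344f (7.06) had a strong peak in WT replicate 1 and none in replicate 2, and Prrg1 (6.99) had one in WT replicate 2 only. Promoters outside the rule could thus have higher acetylation in 1 library than promoters inside it had in both.

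The height of the H3K27ac peaks was compared between genotypes with limma on log2 fold enrichment, centered in each library, over all 12688 consensus regions with a H3K27ac peak in all 4 libraries. No region was called at a Benjamini-Hochberg adjusted p under 0.05 (0 of 12688, a background of 0%), and none of the 7974 acetylated promoters in the fit was called, although 491 of them had an unadjusted p under 0.05 (6.16%, against 6.57% of all regions tested). The rule used the WT peaks of this mark, and the fit held only promoters with a peak in both Tcf4 cKO libraries, so these values describe the promoters that were acetylated throughout and leave out 721 with a peak in 1 Tcf4 cKO library and 216 with none. The smallest adjusted p among them was 0.354. Their differences centered on 0.00 with a standard deviation of 0.18 (log2), and 95% lay between -0.36 and 0.37. None of them was called with quantile normalization, the mean of all peaks in a region, a replicate block or an adjusted p of 0.1. A fit that kept promoters without a peak in some libraries tested all 8911 and gave 0 calls. It filled each missing peak with the lowest enrichment in that library, so it cannot decide whether acetylation changed there.

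The number of acetylated promoters with a H3K27ac peak was 8524 (95.7%) in Tcf4 cKO replicate 1 and 8145 (91.4%) in replicate 2. By construction it was 8911 in each WT library, so this difference is a consequence of the rule and was not tested. The H3K27ac lists held 28413 and 24477 peaks in WT against 26644 and 22026 in Tcf4 cKO, and the part of peak number was not tested. The same rule was also applied to the Tcf4 cKO libraries. It chose 8544 promoters, of which 94.7% were acetylated in both WT libraries, while 89.5% of the promoters chosen on WT were acetylated in both Tcf4 cKO libraries. The 2 sets shared 7441 promoters, 83.5% of the WT set and 87.1% of the Tcf4 cKO set. For a comparison without a chosen side, pairs of libraries were taken in both orders over all 13909 open promoters. Of the promoters with a H3K27ac peak in one library, 92.6% ± 3.89 (SD, n = 4 ordered pairs) had one in the other library of the same genotype, and 92.1% ± 3.85 (SD, n = 8 ordered pairs) had one in a library of the other genotype. The pairs reuse the same 4 libraries and depend on the order. Of the promoters with a peak in Tcf4 cKO replicate 1, 88.4% had one in replicate 2, and 95.9% the other way round. These SDs are therefore not a spread between replicates, and the gap between the means was not tested.

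**Figure D2:**
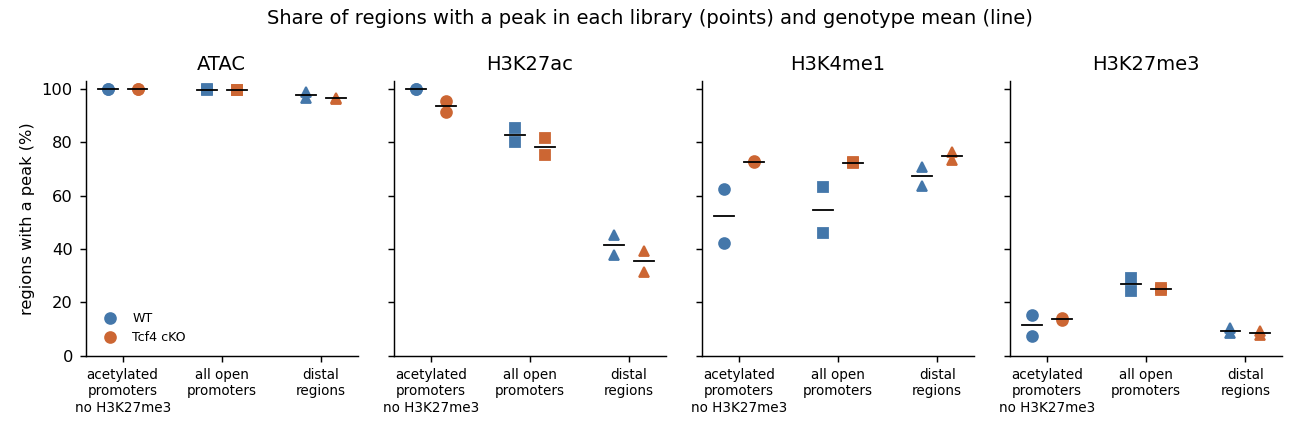
Share of regions with a peak (y axis, percent) in each library (points) with the genotype mean (line), for the acetylated promoters without H3K27me3, all open promoters and distal regions. H3K27ac is 100% in WT for the acetylated promoters because the rule required it. For H3K4me1, both WT points lie below both Tcf4 cKO points in all 3 sets.

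A small group of 216 acetylated promoters (2.42%) had no H3K27ac peak in either Tcf4 cKO library, a count that draws on the rule and from which nothing is read. The same pattern was seen at 3.55% of all consensus regions. In the mirrored rule, 71 of 8544 (0.831%) had none in either WT library. These 216 had been weak in WT: their median fold enrichment was 3.74 against 4.75 for the 7974 that were acetylated in all 4 libraries, the covered length was 517 against 932 bp, and 67.1% rather than 93.2% held a protein-coding start. Their chromatin was still open, with ATAC peaks in both Tcf4 cKO libraries in 209 of 216. Those with the strongest WT peaks were Eif2s3y, Calu, Uty, Pex7, Ccdc110, Resp18, Trav3-4 and Slc16a7. Calu, an endoplasmic reticulum calcium-binding protein, had fold enrichments of 5.63 and 5.59 in WT and no peak in Tcf4 cKO, while its ATAC enrichments were 11.2 and 12.2 in WT and 12.3 and 10.5 in Tcf4 cKO and overlapped. Pex7, a peroxisomal import receptor, had 5.29 and 5.94 for H3K27ac in WT and no peak over the region in Tcf4 cKO, with ATAC between 11.9 and 12.4 in all 4 libraries. Tcf3, which encodes another E protein, was also in the group, with weak WT peaks of 2.84 and 3.32.

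Eif2s3y and Uty were the only 2 acetylated promoters on chromosome Y. Eif2s3y had H3K27ac enrichments of 5.93 and 7.82 in WT. Its ATAC enrichments were 13.2 and 12.1 in WT and 6.30 and 11.7 in Tcf4 cKO, both Tcf4 cKO values being below both WT values. Uty had 8.84 and 11.3 in WT and 5.25 and 8.54 in Tcf4 cKO. The sex of the animals behind each library was not given in the sources used here, and its part in these values was not tested. Without these 2 promoters the group numbered 214.

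The rule started from reproducible ATAC regions, so an ATAC peak was nearly always present by construction, while the height of the peak in each genotype was not used. All but 17 of the 8911 had an ATAC peak in all 4 libraries, with shares of 99.99% and 100% in WT and 99.9% in both Tcf4 cKO libraries. Fold enrichments kept their order between libraries, with Spearman correlations across promoters from 0.858 to 0.883 (n = 8894), and pairs of one genotype (0.883 and 0.874) were barely closer than pairs of different genotypes (0.858 to 0.867). Promoters are not independent replicates, and they share their libraries and base composition.

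In the limma fit of ATAC fold enrichment over 30379 regions, 897 regions were called at an adjusted p under 0.05, a background of 2.95%. Among the 8894 acetylated promoters in that fit 12 were called (0.135%), 9 of them lower and 3 higher in Tcf4 cKO, and 233 had an unadjusted p under 0.05 (2.62%, against 14.2% of all regions tested). Distal regions were called in 833 of 16610 cases (5.02%), promoters with neither mark in 46 of 2330 (1.97%), promoters with H3K27me3 only in 5 of 738 (0.678%) and promoters with both marks in 1 of 1807 (0.0553%). The difference between these shares was not tested. Leaving out either WT library ended every call, in the acetylated promoters and over all regions, whereas without Tcf4 cKO replicate 1 or 2, 14 or 13 acetylated promoters were called. With quantile normalization 7 were called, all of them lower, in place of 9 lower and 3 higher. The replicates of all 12 separated by genotype without overlap.

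**Figure D3:**
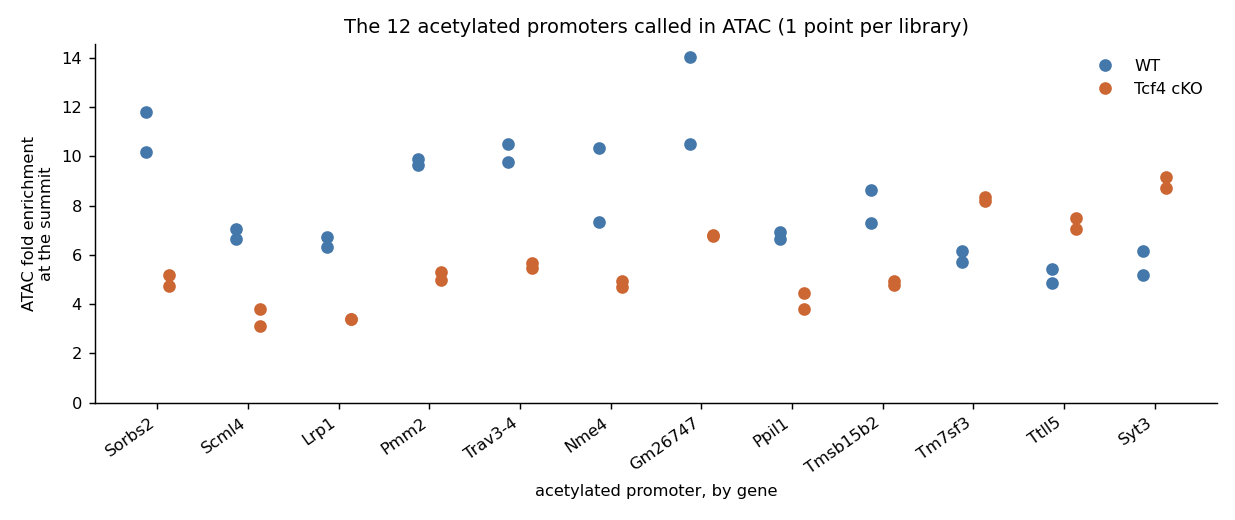
ATAC fold enrichment at the peak summit (y axis, linear) of the 12 acetylated promoters called by limma, 1 point per library, ordered by the log2 difference. Both Tcf4 cKO points lie below both WT points for the 9 at the left and above them for the 3 at the right.

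The largest fall was at Sorbs2 (chr8:45687741-45688554), which encodes a cytoskeletal adaptor protein. Its ATAC fold enrichment was 10.2 and 11.8 in the WT libraries and 4.73 and 5.17 in Tcf4 cKO, a log2 difference of -1.06 ± 0.16 (SE) with a limma adjusted p of 0.00352. It also had H3K27ac peaks of 3.88 and 5.10 in WT and none in Tcf4 cKO. Scml4 (chr10:42934533-42935602), related to Polycomb group proteins, had 6.63 and 7.04 in WT against 3.81 and 3.09, and its H3K27ac peaks of 3.84 and 4.51 in WT had no counterpart in Tcf4 cKO. The difference was -0.90 ± 0.16 (limma adjusted p = 0.00650).

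Lrp1 (chr10:127542053-127543046), an endocytic receptor for apolipoprotein E, had 6.73 and 6.32 in WT and 3.40 and 3.38 in Tcf4 cKO (-0.86 ± 0.16, limma adjusted p = 0.00728). Pmm2 (chr16:8645511-8646275), a phosphomannomutase of protein glycosylation, had 9.66 and 9.91 against 4.96 and 5.31 (-0.84 ± 0.16, limma adjusted p = 0.00738). Each kept a H3K27ac peak in 1 of the Tcf4 cKO libraries. Trav3-4, a T-cell receptor segment, completed the 5 largest falls at -0.77 ± 0.15. Gm26747, Nme4, Ppil1 and Tmsb15b2 fell by 0.75, 0.76, 0.63 and 0.62.

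Of the 3 that rose, Syt3 (chr7:44384019-44385021), whose promoter is printed above, had 6.15 and 5.16 in WT and 8.70 and 9.15 in Tcf4 cKO (0.75 ± 0.17, limma adjusted p = 0.0184). Its H3K27ac peaks of 4.02 and 3.26 in WT were absent in both Tcf4 cKO libraries, so the 2 measurements went opposite ways. Ttll5, a tubulin polyglutamylase, rose by 0.60 ± 0.16 and Tm7sf3 by 0.57 ± 0.15, both with a limma adjusted p of 0.0497 and 0.0498 close to the threshold. Tm7sf3 stood at 8.52 in WT and 8.25 in Tcf4 cKO on the authors' read-based scale, which is the opposite direction.

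As a set, the 12 were unlike the typical acetylated promoter. Their median width was 934 bp and their median accessibility in WT was 6.99 on the authors' log2 scale, against 1261 bp and 8.49 for all 8911. Only 7 of the 12 contained a start of the GENCODE basic annotation, which 94.6% of all acetylated promoters did. For Sorbs2, Scml4, Lrp1, Pmm2 and Ttll5 the region lay within 1 kb of a start in the authors' annotation but held none of the basic set. Of the 9 that fell, 3 had no H3K27ac peak in either Tcf4 cKO library, 4 had one in a single library and 2 kept it in both. Of the 3 that rose, 1 had none and 2 kept it in both. Over all 8911 the same counts were 216, 721 and 7974. The rule fixed the WT peaks of this mark, so nothing is read from these counts. An anti-Flag peak in both libraries was present at 6 of the 12, against 65.6% of all acetylated promoters.

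The second measure of accessibility was the pair of means that the authors deposited for each region, the mean log2 normalized read count of WT and of Tcf4 cKO. It has no replicate values, so no test was made. The median difference, Tcf4 cKO minus WT, was -0.13 over the acetylated promoters, with quartiles of -0.22 and -0.02, and -0.10 over all consensus regions. Relative to that overall shift the median was -0.03. Differences beyond 0.5 were seen downward at 179 acetylated promoters (2.01%, against a background of 12.6% of all regions) and upward at 42 (0.471%, against 8.38%). When all differences were centered on the overall median, the counts were 109 downward and 77 upward.

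**Figure D4:**
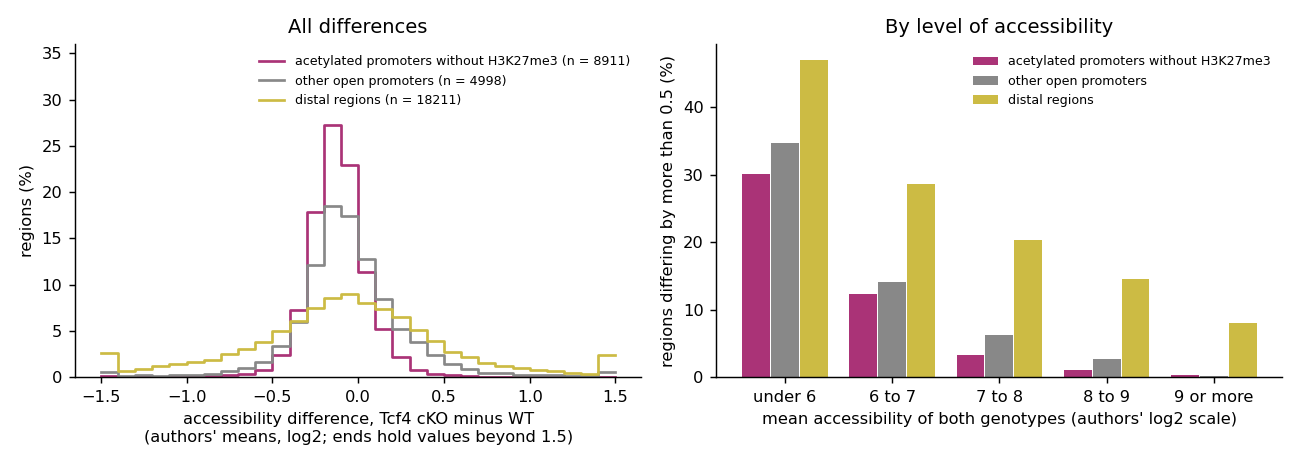
Left, distribution of the accessibility difference (x axis, Tcf4 cKO minus WT, authors' means, log2) as percent of regions (y axis) for the acetylated promoters without H3K27me3, other open promoters and distal regions. Right, percent of regions that differed by more than 0.5 in either direction (y axis) in bins of mean accessibility (x axis). The distribution of the acetylated promoters (SD 0.21) is narrower than that of distal regions (SD 0.66), and distal regions have the highest bar in every bin.

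Because promoters were more accessible than distal regions, the differences were also read at matched levels. Between 8 and 9 on the log2 scale, 1.08% of 4059 acetylated promoters, 2.67% of 973 other open promoters and 14.5% of 1130 distal regions differed by more than 0.5. Between 6 and 7 the shares were 12.4% of 565, 14.1% of 1220 and 28.7% of 6519. At each of these levels the distal regions had the highest share. The differences between the sets were not tested.

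The largest falls in the authors' means among named genes were at Epb42, Zfp957, Scml4, Pmm2 and Sorbs2. Epb42 (chr2:121023395-121024313), a protein of the red cell membrane skeleton, went from 6.66 to 2.49 and had ATAC peaks of 7.58 and 12.7 in WT with none in Tcf4 cKO. Zfp957 went from 6.63 to 4.42, with a peak in 1 Tcf4 cKO library. The largest rises were at Cwc22, Sfxn5, Cdh23, Ranbp3l and Ttll5. Cwc22 (chr2:77945249-77946756), a splicing factor, went from 8.39 to 12.3 in the authors' means, while its summit enrichment was 9.62 and 11.6 in WT against 6.83 and 6.73 in Tcf4 cKO, in the opposite direction. Cwc22 lies in a segment known to vary in copy number between mouse strains, and the value of that promoter is uncertain. Sfxn5, a mitochondrial carrier, went from 6.19 to 7.45 with summit enrichments of 7.34 and 7.69 against 8.89 and 9.78, so both measures had the same sign there.

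H3K4me1 was the mark with the widest gap between libraries. A peak was present at 42.4% and 62.5% of the acetylated promoters in the WT libraries and at 72.5% and 72.9% in Tcf4 cKO. The means were 52.4% ± 14.2 and 72.7% ± 0.270 (SD, n = 2 each), a difference of 20.3 percentage points with an exact two-sided permutation p of 0.333, the smallest that 2 against 2 libraries can give. WT replicate 1 was the lowest library and moved the difference: without it the gap was 10.3 points, and without WT replicate 2 it was 30.3 points. All open promoters showed a gap of 17.7 points and distal regions one of 7.66 points in the same direction, and the number of H3K4me1 peaks in the whole library was also higher in both Tcf4 cKO libraries. The part of peak number in this gap was not tested.

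Counted per promoter, 703 of the 8911 (7.89%) had a H3K4me1 peak in both Tcf4 cKO libraries and neither WT library, against a background of 5.42% of all regions, and 25 had the reverse, against 0.950%. Where all 4 libraries had a peak, heights were compared with limma. It tested 14029 regions and called none of them (0%), including none of 3052 acetylated promoters, of which 176 had an unadjusted p under 0.05 (5.77%, against 7.38% of all regions tested). The smallest adjusted p among them was 0.253. Without WT replicate 2, 2 acetylated promoters were called.

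H3K27me3 was thin on these promoters, as the rule asked, and was not zero. A peak in exactly 1 of the WT libraries was present at 2024 of them, and 6887 had none in WT. In Tcf4 cKO 14.1% and 13.5% had a peak, against 7.55% and 15.2% in WT. The rule capped the WT shares by removing promoters with a peak in both WT libraries, so the genotypes are not compared on them. Over all open promoters, where nothing was removed, the means were 26.7% in WT and 25.1% in Tcf4 cKO. Of the 6887 without H3K27me3 in WT, 229 (3.33%, or 2.57% of all 8911) had it in both Tcf4 cKO libraries and 5954 had it in no library at all. Over all consensus regions 1.34% had H3K27me3 in both Tcf4 cKO libraries and neither WT library, and the reverse is 0 among the acetylated promoters by the rule. Of the 2024 with a peak in 1 WT library, 374 (18.5%) had it in both Tcf4 cKO libraries. Under the mirrored rule 7.82% of promoters chosen on Tcf4 cKO had H3K27me3 in both WT libraries, and under the original rule 6.77% had it in both Tcf4 cKO libraries.

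The H3K27me3 peaks at acetylated promoters were described beside those at promoters with H3K27me3 only, although the WT peaks of this mark separated the 2 sets. Peaks at acetylated promoters covered a median of 39.7% to 45.2% of the region in the 4 libraries. At promoters with H3K27me3 only the median cover was 90.7% to 100%. Fold enrichment was higher at acetylated promoters, with medians of 3.04 to 3.14 against 2.32 to 2.40. Promoters with both marks had medians of 2.89 to 3.07. For these broad peaks the value is the mean over the whole peak, so it does not rank short peaks against wide ones in strength. The strongest cases without a WT peak were Anks1b, Atad1, Morf4l2, Nfatc2ip, Rasgrf2, Slc38a11, Khdrbs2 and Abcb1a. Anks1b, a postsynaptic adaptor, had 4.60 and 4.21 in Tcf4 cKO for H3K27me3, and its H3K27ac stood at 5.59 and 6.74 in WT and 5.76 and 6.02 in Tcf4 cKO, which overlapped. Khdrbs2, an RNA-binding splicing regulator, had 3.94 and 3.51 for H3K27me3 beside H3K27ac between 5.52 and 6.59 in all 4 libraries. Abcb1a, the drug efflux pump of the blood-brain barrier, had 3.51 and 4.12. None of these 8 was called in the H3K27ac or ATAC fits, in which Morf4l2 was tested for ATAC only. Which cells of the mixture carried each mark was not tested.

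Anti-Flag peaks were frequent on these promoters. The share was 90.9% in the first library and 66.9% in the second, and 5847 (65.6%) had a peak in both, against 54.6% of all open promoters, 13.2% of those with H3K27me3 only and 23.7% of distal regions. When Tcf4 had to cover 30% of the region the share was 64.3%. It was 69.2% at promoters with both H3K27ac and H3K27me3. E-boxes were counted in the windows around the start and not under the anti-Flag peaks, whose cover was highest downstream of those windows. CANNTG stood in 61.1% of the acetylated promoters with anti-Flag peaks in both libraries and in 67.9% of the 691 with none, and CAGCTG in 15.5% and 15.1%. The E-box CACGTG went the other way, at 10.5% and 7.81%. Higher median GC was seen with anti-Flag peaks, at 62.3% against 56.0%. Anti-Flag enrichment correlated across the 5847 promoters with WT H3K27ac enrichment (Spearman 0.565) and with WT ATAC enrichment (0.463), measures that share base composition and openness.

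The strongest anti-Flag peaks by the lower library were at Tmem260, Zfp868, Snord3b2, Fbxo5, Tfb1m, Coq7, Immt and Lrif1. Tmem260, an enzyme of protein O-mannosylation whose promoter is printed above, had 12.3 and 12.7. Its H3K27ac was 6.47 and 7.91 in WT and 8.02 and 8.82 in Tcf4 cKO, which separated upward without passing the test. Immt, the core subunit of the mitochondrial contact site complex, had 12.7 and 10.8, with H3K27ac of 9.45 and 7.47 in WT and 6.41 and 8.34 in Tcf4 cKO. Fbxo5, an inhibitor of the anaphase-promoting complex, had 11.5 and 11.3 with ATAC of 11.7 and 10.6 in WT. None of the 8 was called in ATAC or H3K27ac, in which Fbxo5 was not tested. Snord3b2 is a multicopy small nucleolar RNA gene, and its reads may be shared with its copies.

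Promoters with and without anti-Flag peaks were compared for accessibility between the genotypes. The median difference of the authors' means was -0.14 for the 5847 with peaks in both libraries, -0.10 for the 2373 with a peak in one and -0.06 for the 691 with none, with 117, 44 and 18 of them below -0.5 and 13, 16 and 13 above 0.5. On the limma scale of summit enrichment the ATAC medians were 0.03, 0.01 and 0.00, in the reverse order. Promoters with peaks were also more accessible in WT, with medians of 8.78, 8.02 and 7.26, and the part of that level in these counts was not tested. Limma called 6, 3 and 3 of them in ATAC. H3K27ac was absent from both Tcf4 cKO libraries in 1.49%, 3.08% and 8.10% of the 3 groups. The WT peaks that the rule required were weaker in the same order, with median enrichments of 4.76, 4.53 and 4.16. These shares draw on the rule, and nothing is read from them.

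Gene lists place the acetylated promoters among known functions. Over all 15395 genes with an open promoter, 69.5% had one in this state. COMPASS, which methylates H3K4, had it at 12 of 13 genes (92.3%), the proteasome at 26 of 29 (89.7%), the spliceosome core at 20 of 24 (83.3%), mitochondrial complex I at 28 of 34 (82.4%) and cholesterol synthesis at 14 of 18 (77.8%). Polycomb repressive complex 2 itself had it at 9 of 10 genes, Ezh2 being the exception with both marks. Among lineage lists the counts were 8 of 14 for the oligodendrocyte lineage, 9 of 20 for astrocytes, 3 of 14 for interneurons, and none of 6 for projection neurons, 5 for endothelial cells and 2 for microglia. Immediate early genes had it at 7 of 15, replication and mitosis genes at 8 of 18, and the BAF complex at 12 of 18 (66.7%). Among interneuron genes, Dlx1, Dlx2, Dlx5, Dlx6, Gad1 and Nkx2-1 fell in the class with H3K27me3 only. These lists count genes and were not tested.

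No acetylated promoter of these lists was called by limma in the assays in which it was tested. The 26 acetylated proteasome promoters had H3K27ac in all 4 libraries without exception, and their median accessibility difference was -0.10. Psmd11, a regulatory particle subunit, had H3K27ac of 5.90 and 7.04 in WT and 7.53 and 7.42 in Tcf4 cKO, which separated upward without passing the test. Psma1, a core particle subunit, had 6.72 and 5.79 against 5.98 and 5.87, which overlapped. For the spliceosome, Sf3b1 had 5.52 and 4.49 against 5.80 and 3.48, again overlapping. The 20 spliceosome promoters were acetylated in all 4 libraries too. Complex I kept H3K27ac in both Tcf4 cKO libraries at 27 of 28 promoters, and Ndufb3 had 4.92 and 5.13 in WT against 5.82 and 4.72. In cholesterol synthesis, Dhcr7, which catalyzes the last step, had 5.61 and 6.48 against 5.11 and 5.95. Hmgcs1, Srebf2 and Insig1 of that list, which are targets of the sterol-sensing SREBP factors, carried H3K27me3 as well.

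Among chromatin regulators, H3K27ac was present in both Tcf4 cKO libraries at 11 of 15 BAF, 8 of 10 PRC2 and 10 of 12 COMPASS promoters, and in neither at 2, 1 and 1 of them. Suz12 and Eed, the core partners of Ezh2 in PRC2, had H3K27ac of 6.54 and 5.99 in WT against 5.47 and 5.83 in Tcf4 cKO, and of 4.98 and 5.59 against 4.89 and 4.46, respectively. Both genes separated downward without passing the test, and 0 of the 8 PRC2 promoters tested for H3K27ac had an unadjusted limma p under 0.05. How many of all acetylated promoters separated in either direction was not counted, so nothing is read from the separations of single genes. Ep300, which writes H3K27ac, had 4.25 and 5.13 against 4.69 and 3.83, and its accessibility stood at 9.57 and 9.38 in the authors' means. Among E proteins, Tcf12 was acetylated in all 4 libraries, with 4.39 and 4.06 in WT and 4.84 and 4.65 in Tcf4 cKO. These values separated upward without passing the test. Id3, an inhibitor of E proteins, had a H3K27ac peak in 1 Tcf4 cKO library.

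Glial genes among the acetylated promoters were followed singly because the study concerns glial progenitors. The oligodendrocyte list had a median accessibility difference of -0.32 over 8 promoters and the astrocyte list one of -0.26 over 10, larger than the -0.13 of all acetylated promoters, with 1 promoter in each list below -0.5 and none above 0.5. In summit enrichment the ATAC medians were 0.03 and -0.05 (limma, log2), so the sign of the oligodendrocyte list differed between the measures. None was called by limma for H3K27ac or ATAC. No oligodendrocyte and 3 astrocyte promoters could be tested for H3K4me1, with 0 calls. For H3K27ac, 0 of 6 oligodendrocyte and 2 of 8 astrocyte promoters had an unadjusted p under 0.05. These medians were not tested. Myrf (chr19:10240090-10241104), the transcription factor of myelin genes, had H3K27ac of 2.99 and 3.34 in WT and 3.32 in the first Tcf4 cKO library, with no peak in the second. Its ATAC enrichment was 6.32 and 8.11 in WT and 9.43 and 6.90 in Tcf4 cKO, which overlapped. Tcf7l2, a Wnt effector of oligodendrocyte maturation, had H3K27ac of 3.29 and 3.68 against 4.46 and 3.40. Olig1 was weakly acetylated, with 2.79 and 2.52 in WT and a single Tcf4 cKO peak of 2.84.

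Among astrocyte genes, Nfia, a glial switch factor, had H3K27ac of 4.12 and 5.76 in WT and 3.94 and 3.22 in Tcf4 cKO. Its ATAC enrichment was 9.15 and 8.22 against 7.94 and 7.87. Neither passed the test (log2 differences of -0.42 and -0.04). The acetylated Nfib promoter (chr4:82704041-82705431) had H3K27ac of 3.76 and 4.73 in WT, was lower in both Tcf4 cKO libraries without passing the test, and carried no anti-Flag peak. Sox9, a factor of glial specification, had 3.01 and 3.54 in WT, 3.64 in the first Tcf4 cKO library and no peak in the second, and went from 9.19 to 8.69 in the authors' mean accessibility. Glul, the glutamine synthetase of astrocytes, had 4.71 and 4.18 against 3.38 and 3.81, which separated without passing the test.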

How the data were processed

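Narrow peaks (H3K4me1, H3K27ac, ATAC and anti-Flag) and broad peaks (H3K27me3) had been called by the authors in each library with MACS2 after Trim Galore, Bowtie 2 alignment to mm10 and SAMtools. In the deposited peak lists, the ratio is the fold enrichment at the summit (for broad peaks, the mean over the peak) and −log10 q is the caller's significance. The authors deposited a consensus of reproducible ATAC peaks with the mean log2 normalized read count of each genotype, from DiffBind. Its columns of fold change, p-value and FDR, and a table of motif footprints, hold the authors' own comparisons and were not used.

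Here each consensus region took the highest enrichment of the peaks overlapping it. Log2 enrichments were centered in each library and compared with limma 3.58.1 (R 4.3.3) over all regions with a peak in all 4 libraries, with Benjamini-Hochberg adjustment. Shares were compared by exact two-sided permutation over libraries. The code of the fit was also run on simulated data, and no result above rests on that run. Depth was not given, so no counting interval could be made. Named genes were the extremes of each measure, up to 4 genes of each list by H3K27ac length, and 10 genes of the glial lineage, of which those among the acetylated promoters are given. The promoters, gene lists and rules were chosen with earlier results of these data known. "Not in both" was read as allowing a H3K27me3 peak in 1 WT library. Of the promoters, 73.2% matched a RefSeq window, so composition was computed on genome windows.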

Additional observations from a re-analysis of the deposited data

How the results depend on the processing

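The 12 ATAC calls among the acetylated promoters became 7 with quantile normalization, 24 with a replicate block and 27 at an adjusted p of 0.1. Leaving out 1 library at a time gave 0 to 14 calls, with 0 without WT replicate 1 and 0 without WT replicate 2. For H3K4me1 the same gave 0 to 2 calls, the 2 being without WT replicate 2. The difference in the H3K27me3 share was 8.44 percentage points when promoters with H3K27me3 in either WT library were left out, which sets the WT share to 0 by construction, -0.0112 with peaks below a −log10 q of 5 left out, and -1.39 to 6.22 without 1 library. The median accessibility difference was -0.031 when centered on all regions. The share with anti-Flag peaks in both libraries was 40.6% with the same limit on q, and 66.9% to 90.9% with 1 library. The cause of the other changes was not tested. Of the remaining alternatives, 59 values for whole comparisons kept their sign or stayed at 0 calls. Another 2, both of the H3K27me3 share given above, changed sign within the spread between replicates. Some of the 59 changed in size: the number of acetylated promoters was 6887 with H3K27me3 in neither WT library, against 8911. Others could not change, such as the H3K27ac share without 1 WT library, since the rule fixes both WT shares. For single promoters 65 kept their direction and side of the threshold, and 43 fell below the threshold in the same direction. Of the 65, 12 were at the looser limit of an adjusted p of 0.1 and could not fall.

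Replicate numbers did not pair the libraries: deviations of same-numbered libraries correlated at 0.022 (H3K27ac), -0.0069 (ATAC) and 0.0092 (H3K4me1). With the replicate block 0 acetylated promoters were called for H3K27ac or H3K4me1, and the difference in the H3K4me1 share (20.3 points) had an exact p of 0.5.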
